A study of Rattus norvegicus with 9 samples.

Results

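Oxygen sensing and HIF target genes were followed in rat chondrocytes, the cells that make cartilage. The 10 genes (Hif1a, Epas1, Egln1, Egln2, Egln3, Vhl, Vegfa, Bnip3, Ndrg1 and Adm) were taken by symbol from a table of 17588 genes, and all 10 were found. All 9 libraries came from wild-type primary chondrocytes, 3 per group. The control group was kept in routine culture without interleukin-1β (IL-1β, an inflammatory cytokine), a second group received IL-1β, and the third received IL-1β and then shared a transwell with dermal fibroblasts, which sat above the chondrocytes. No group had a transwell without fibroblasts, so the fibroblasts and the culture format cannot be told apart. None of the sources used here gives the animals' age or sex, the IL-1β dose or its duration, or how long the co-culture lasted. The labels do not say whether replicates came from separate animals or dishes; p-values therefore reflect the scatter among sequenced libraries, part of which may be technical.

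HIF-1α (encoded by Hif1a) and HIF-2α (Epas1) are transcription factors that oxygen holds in check. When oxygen is present, prolyl hydroxylases (Egln1, Egln2 and Egln3 encode PHD2, PHD1 and PHD3) modify the α subunits, and the VHL protein then marks them for destruction by a ubiquitin ligase; when oxygen is short the subunits persist, pair with ARNT and switch on genes for angiogenesis, glucose use and mitochondrial turnover. Cartilage has no vessels, HIF-1α is needed for survival of growth plate chondrocytes, and HIF-2α has been tied to cartilage breakdown in osteoarthritis models. Because the α subunits are controlled mainly as proteins, the mRNA levels below do not measure HIF activity.

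Levels are FPKM, which are sequenced fragments scaled to transcript length and library total, which puts levels of different genes on one scale. The build behind the FPKM is unresolved (a mouse build is named for these rat cells), and its effect on levels compared between genes, such as the orders of level, the Egln3 share and the Epas1 to Hif1a ratio, was not tested. Changes are differences of mean log2(FPKM + 1). A gene was called when its adjusted p in limma, fitted to all 9 libraries and adjusted over 11732 tested genes, was under 0.05. All 10 genes passed the filter of at least 1 FPKM in at least 3 libraries. FPKM summed to 771058 to 782435 in control, 796262 to 832248 with IL-1β and 809839 to 811665 in co-culture libraries, and the values were not rescaled. Chondrocyte markers (9 of 9 above the filter) summed to 1584 to 1664 FPKM in control, 311 to 328 with IL-1β and 451 to 499.8 in co-culture. Dermal fibroblast markers summed to 208 to 219.8, 1184 to 1246 and 618 to 716, so their sum was lower in co-culture than with IL-1β alone. Of these 9, 4 (Dpp4, Pi16, Cd34 and Clec3b) did not exceed 1.31 FPKM in any library. Of the 5 tested, 2 were called lower in co-culture than with IL-1β alone. They were Lum (mean 764.5 to 359 FPKM) and Dcn (324 to 193.6), which are also made by chondrocytes. The other 3 (Twist2, Crabp1 and Pdgfra) were not called there. Skeletal muscle markers (8 of 8 above the filter, none at 0 throughout) summed to 172 to 179, 382 to 399 and 371 to 417; their part in the results below was not tested. Macrophage markers summed to 18.2 to 19.8 FPKM in control, 20.9 to 24.6 with IL-1β and 19.1 to 21.4 in co-culture. Cd14 made up most of that sum (mean 12.02 FPKM in control). Of the 5 tested, 2 were called higher with IL-1β (Cd14 and Cd68) and 1 lower (Laptm5). Over all tested genes 26.5% were called higher and 20.2% lower. Endothelial markers summed to 12.85 to 13.9, 9.33 to 9.97 and 9.31 to 10.2, so their sum was highest in control. That sum rests on the 2 of 7 that passed the filter, Egfl7 (mean 9.69 FPKM in control and 8.24 with IL-1β) and Erg (2.87 and 0.57). Ptprc, Csf1r, Pecam1, Cdh5, Kdr, Tek and Vwf were below the filter. In bulk RNA, fewer cells of a type and less RNA per cell cannot be told apart.

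HIF binds DNA at a short core, and the RefSeq promoter windows of GRCr8 (250 bases before to 50 after each annotated start) were searched for its 2 spellings, ACGTG and GCGTG, on both strands. Of the 10 genes, 9 matched a window, Vegfa with 2 starts; Ndrg1 did not. A core was found for Bnip3 (4 matches), Hif1a (3) and Egln1 (2), that is 3 of 9 genes. By window this was 3 of 10 (30.0%), against 41.6% of all 33469 windows and 61.7% of the 10363 windows of tested genes. For ACGTG alone the shares were 30.0%, 19.3% and 25.5%, so the order depended on the spellings counted. Egln3, the gene with the largest change described below, had no match in its window. The 250 bases before the start are shown for the 3 genes with a core match and for Egln3. Whether core matches go with the size of a change was not tested. Capitals mark core matches on either strand.
Bnip3 (GRCr8 chr1:203154963-203155212, minus strand): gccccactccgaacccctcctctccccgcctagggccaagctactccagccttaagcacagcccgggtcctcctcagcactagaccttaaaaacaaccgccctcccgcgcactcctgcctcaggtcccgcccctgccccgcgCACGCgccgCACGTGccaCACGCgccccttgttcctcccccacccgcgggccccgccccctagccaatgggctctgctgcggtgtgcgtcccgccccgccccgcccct
Hif1a (GRCr8 chr6:98359648-98359897, plus strand): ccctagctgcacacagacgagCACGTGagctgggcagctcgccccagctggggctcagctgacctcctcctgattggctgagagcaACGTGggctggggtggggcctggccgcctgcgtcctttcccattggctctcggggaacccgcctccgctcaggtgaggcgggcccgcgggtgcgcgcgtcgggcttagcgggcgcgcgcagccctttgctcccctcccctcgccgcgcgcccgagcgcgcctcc
Egln1 (GRCr8 chr19:69804682-69804931, minus strand): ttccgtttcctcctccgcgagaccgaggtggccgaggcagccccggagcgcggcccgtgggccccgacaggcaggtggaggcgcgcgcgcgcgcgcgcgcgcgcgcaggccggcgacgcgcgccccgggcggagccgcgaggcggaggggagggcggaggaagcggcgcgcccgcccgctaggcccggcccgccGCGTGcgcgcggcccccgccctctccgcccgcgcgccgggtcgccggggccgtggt
Egln3 (GRCr8 chr6:77411016-77411265, minus strand): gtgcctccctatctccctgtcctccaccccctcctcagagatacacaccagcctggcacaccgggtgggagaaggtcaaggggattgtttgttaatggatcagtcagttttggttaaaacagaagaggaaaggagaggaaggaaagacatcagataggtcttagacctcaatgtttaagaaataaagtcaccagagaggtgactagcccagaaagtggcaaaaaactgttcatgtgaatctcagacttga
The Bnip3 matches begin 108, 99, 98 and 90 bases before the start, and the pair at 99 and 98 is a single palindrome, CACGTG, read on both strands. The same palindrome lies in the Hif1a window, beginning 229 bases before the start, with a further ACGTG 164 before it. Egln1 has a GCGTG 56 bases before its start, and its second match lies after the start and is not printed. The Egln3 window holds 1 CpG dinucleotide in 300 bases, whereas that of Egln1 holds 64 and that of Bnip3 27. The other windows without a match range from 8 (Adm) to 44 (Egln2). A match is a description of the letters and no evidence of binding. Bases outside the windows were not searched, so a gene without a match may hold a core elsewhere.

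With IL-1β, 9 of the 10 genes rose and 0 fell. Over all tested genes 26.5% were called higher and 20.2% lower, and 2249 were higher and 3188 lower when every library was scaled to the same FPKM total; 9 of the 10 genes were called higher there too. The median log2 change of the 10 genes was 0.92, against 0.02 over all tested genes. Vhl was the gene not called.

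The gene for HIF-1α was already abundant in control cells. Hif1a stood at 67.8, 66.5 and 69.6 FPKM in the control libraries, 127, 126 and 127 with IL-1β and 86.7, 91.9 and 96.2 in co-culture. The groups did not overlap, with co-culture between the other two. Hif1a rose 1.86-fold with IL-1β (log2 change 0.88 ± 0.04 SE, limma adjusted p = 3.24e-08) and was 1.38-fold lower in co-culture than with IL-1β alone (-0.46 ± 0.04, limma adjusted p = 2.37e-05). It remained 1.35-fold above control in co-culture (0.42, limma adjusted p = 1.72e-05).

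The gene for HIF-2α was among the lowest of the 10 genes in control cells and rose by a larger factor than Hif1a. Epas1 read 11.7, 10.1 and 11.1 FPKM in control, 39.1, 42.99 and 43.3 with IL-1β and 21.3, 20.2 and 21.4 in co-culture. Its groups were again separate in the same order. The rise with IL-1β was 3.82-fold (1.84 ± 0.06 SE, limma adjusted p = 3.59e-09). In co-culture Epas1 was 1.995-fold lower than with IL-1β alone (-0.96 ± 0.06, limma adjusted p = 3.10e-06), still 1.91-fold above control (0.88, limma adjusted p = 2.00e-06).

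The balance of the 2 α subunit genes shifted. The log2 ratio of Epas1 to Hif1a, which does not depend on library scaling, was -2.64 ± 0.09 in control, -1.60 ± 0.09 with IL-1β and -2.13 ± 0.09 in co-culture (SD, n = 3, exact permutation test over the 3 groups p = 0.00357). Hif1a stayed the more abundant of the pair in every library. That p is the smallest the 1680 assignments allow, and each pair of groups gave the exact two-sided permutation p = 0.1, the smallest for 3 against 3.

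**Figure D1:**
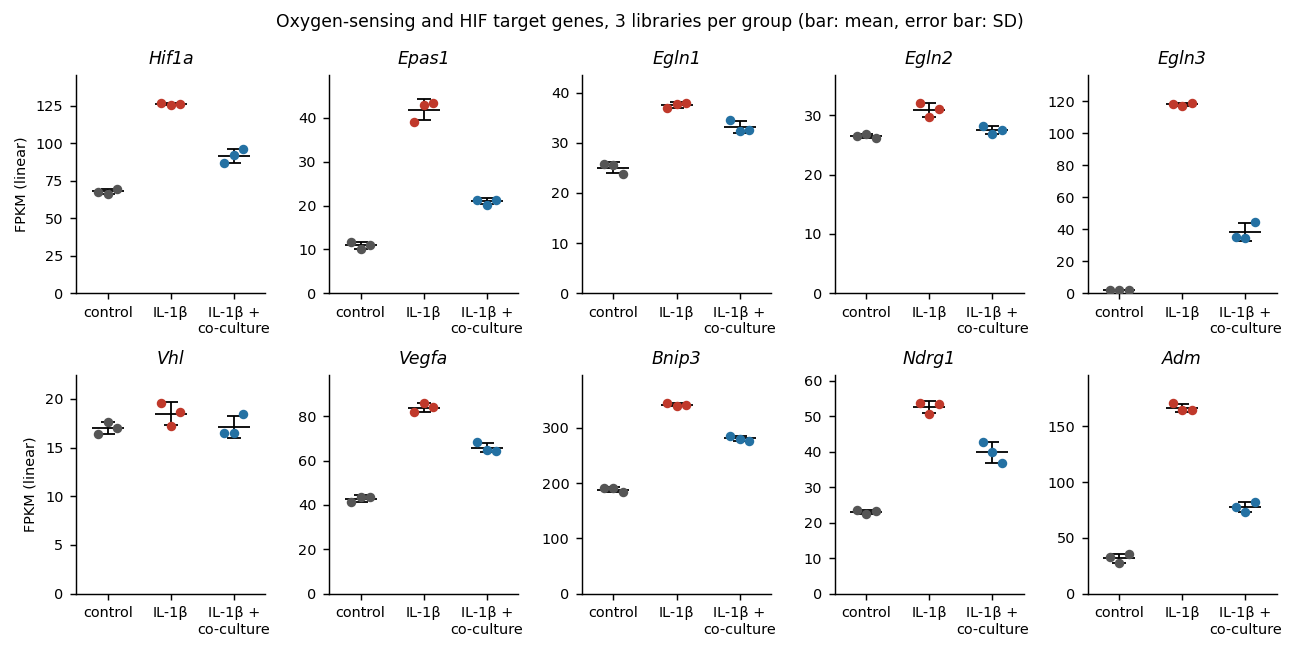
FPKM of each of the 10 genes in the 3 control, 3 IL-1β and 3 IL-1β with co-culture libraries (points), with mean and SD, on linear axes from 0. In all panels but that of Vhl, where the groups overlap, and that of Egln2, where co-culture overlaps control, the IL-1β libraries are highest and the co-culture libraries lie between them and control.

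Among the prolyl hydroxylase genes the response was concentrated in Egln3, which encodes PHD3. Egln3 read 1.94, 2.15 and 2.36 FPKM in control, 118, 117 and 119 with IL-1β and 35.1, 34.8 and 44.5 in co-culture. It was the least abundant of the 10 genes in control and the fourth most abundant with IL-1β. The rise was 54.9-fold (5.24 ± 0.09 SE, limma adjusted p = 4.02e-11), rank 17 of the 11732 tested genes by log2 change. In co-culture Egln3 was 3.10-fold lower than with IL-1β alone (-1.61 ± 0.09, limma adjusted p = 1.71e-06), still 17.7-fold above control (3.63, limma adjusted p = 1.46e-09). The co-culture libraries were the most spread for this gene, with replicate 3 above the others.

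Egln1 encodes PHD2, the main hydroxylase of HIF-1α in most cells. It read 25.8, 25.6 and 23.8 FPKM in control, 36.9, 37.8 and 37.9 with IL-1β and 34.6, 32.4 and 32.5 in co-culture. The groups were separate, but the steps were small: 1.497-fold up with IL-1β (0.56 ± 0.04 SE, limma adjusted p = 1.80e-06) and 1.13-fold down in co-culture (-0.17 ± 0.04, limma adjusted p = 0.0128). Against control, co-culture was 1.32-fold higher (0.39, limma adjusted p = 5.40e-05).

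Egln2, which encodes PHD1, changed least of the 3. Its values were 26.6, 26.9 and 26.2 FPKM in control, 32.0, 29.6 and 31.1 with IL-1β and 28.2, 26.8 and 27.5 in co-culture. It rose 1.16-fold with IL-1β (0.21 ± 0.04 SE, limma adjusted p = 0.00105) and was 1.12-fold lower in co-culture (-0.16 ± 0.04, limma adjusted p = 0.0115). The co-culture libraries overlapped the control libraries, and that difference was not called (0.05, 95% interval -0.04 to 0.13, limma adjusted p = 0.354).

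Egln3 made up 4.01% ± 0.47 of the summed FPKM of the 3 hydroxylase genes in control, 63.3% ± 0.15 with IL-1β and 38.5% ± 3.62 in co-culture (SD, n = 3, exact permutation test over the 3 groups p = 0.00357, and p = 0.1 for each pair, again the smallest possible). The sum itself was 53.8 ± 1.24 FPKM in control, 187 ± 1.81 with IL-1β and 98.8 ± 5.36 in co-culture.

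**Figure D2:**
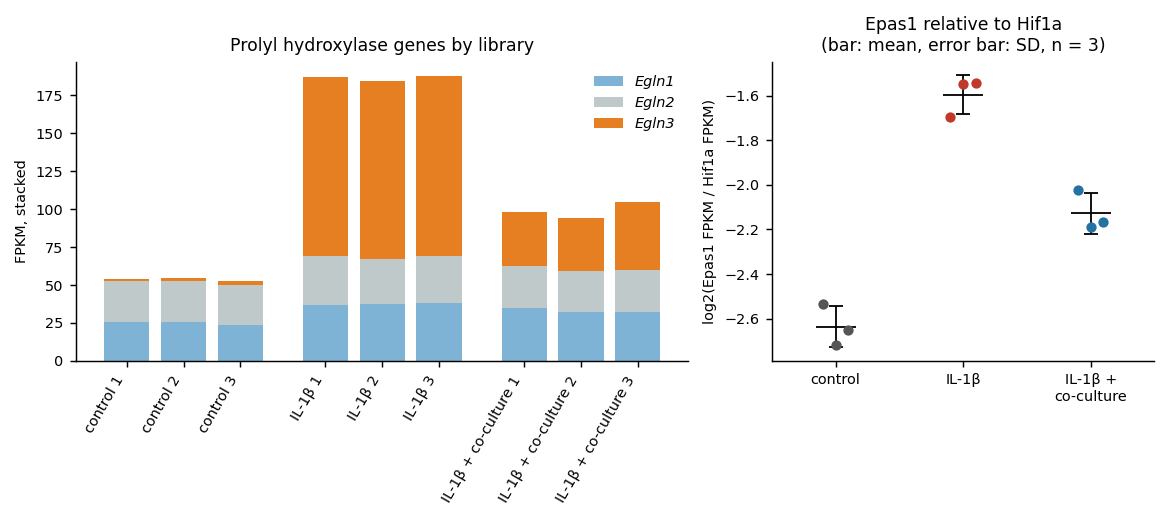
Left, stacked FPKM of Egln1, Egln2 and Egln3 in each library, where the Egln3 segment is a sliver in control and the largest part in the IL-1β libraries. Right, log2 of the Epas1 to Hif1a FPKM ratio per library with mean and SD, highest with IL-1β at -1.70 to -1.55, lowest in control at -2.72 to -2.54 and between them in co-culture.

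Vhl, which encodes the substrate-recognition subunit of the ligase, was not called in any comparison. It read 16.4, 17.7 and 16.99 FPKM in control, 19.5, 17.2 and 18.6 with IL-1β and 16.5, 16.5 and 18.5 in co-culture, and the groups overlapped. The 95% intervals of its log2 changes were -0.02 to 0.24 for IL-1β against control (limma adjusted p = 0.151), -0.24 to 0.03 for co-culture against IL-1β (limma adjusted p = 0.249) and -0.12 to 0.14 for co-culture against control (limma adjusted p = 0.930).

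Among Adm, Vegfa, Bnip3 and Ndrg1, the largest changes were those of Adm, which encodes the vasodilator peptide adrenomedullin. Adm read 32.5, 27.4 and 35.3 FPKM in control, 171, 165 and 164 with IL-1β and 77.4, 73.4 and 82.1 in co-culture. It rose 5.25-fold (2.36 ± 0.08 SE, limma adjusted p = 4.92e-09) and was 2.15-fold lower in co-culture (-1.09 ± 0.08, limma adjusted p = 9.01e-06), 2.45-fold above control (1.27, limma adjusted p = 1.17e-06).

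Vegfa encodes the angiogenic growth factor VEGF-A. It read 41.1, 43.8 and 43.7 FPKM in control, 81.8, 85.7 and 84.0 with IL-1β and 68.3, 64.96 and 64.2 in co-culture, with no overlap between groups. The rise was 1.96-fold (0.95 ± 0.04 SE, limma adjusted p = 1.66e-08), and co-culture was 1.27-fold lower than IL-1β alone (-0.35 ± 0.04, limma adjusted p = 0.000141) and 1.53-fold above control (0.61, limma adjusted p = 1.09e-06).

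Bnip3, a receptor on mitochondria that recruits the autophagy machinery, was the most abundant of the 10 genes in every group. Its values were 191, 190.4 and 183 FPKM in control, 344, 340.1 and 341 with IL-1β and 285, 280.04 and 277 in co-culture. The libraries of a group lay close together and the groups were far apart. Bnip3 rose 1.82-fold (0.86 ± 0.03 SE, limma adjusted p = 2.03e-09), was 1.22-fold lower in co-culture (-0.28 ± 0.03, limma adjusted p = 4.12e-05) and stayed 1.49-fold above control (0.57, limma adjusted p = 9.43e-08).

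Ndrg1, a stress-responsive gene linked to cell differentiation, read 23.5, 22.5 and 23.2 FPKM in control, 53.7, 50.6 and 53.6 with IL-1β and 42.8, 39.99 and 36.8 in co-culture. The groups did not overlap. It rose 2.28-fold (1.16 ± 0.05 SE, limma adjusted p = 4.84e-08), was 1.32-fold lower in co-culture (-0.39 ± 0.05, limma adjusted p = 0.000534) and 1.73-fold above control (0.76, limma adjusted p = 2.48e-06).

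Co-culture against IL-1β alone thus gave 9 of 10 genes lower and 0 higher, where 10.1% of all tested genes were called lower and 11.9% higher. The median log2 change of the 10 was -0.37, against 0.02 over all tested genes. Against control, 8 of the 10 co-culture levels were called higher and 0 lower, with Egln2 and Vhl not called; 21.8% of all tested genes were called higher and 12.2% lower there, and 1541 were higher and 2009 lower when every library was scaled to the same FPKM total. The comparisons share libraries, so they are set side by side and not as independent evidence.

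**Figure D3:**
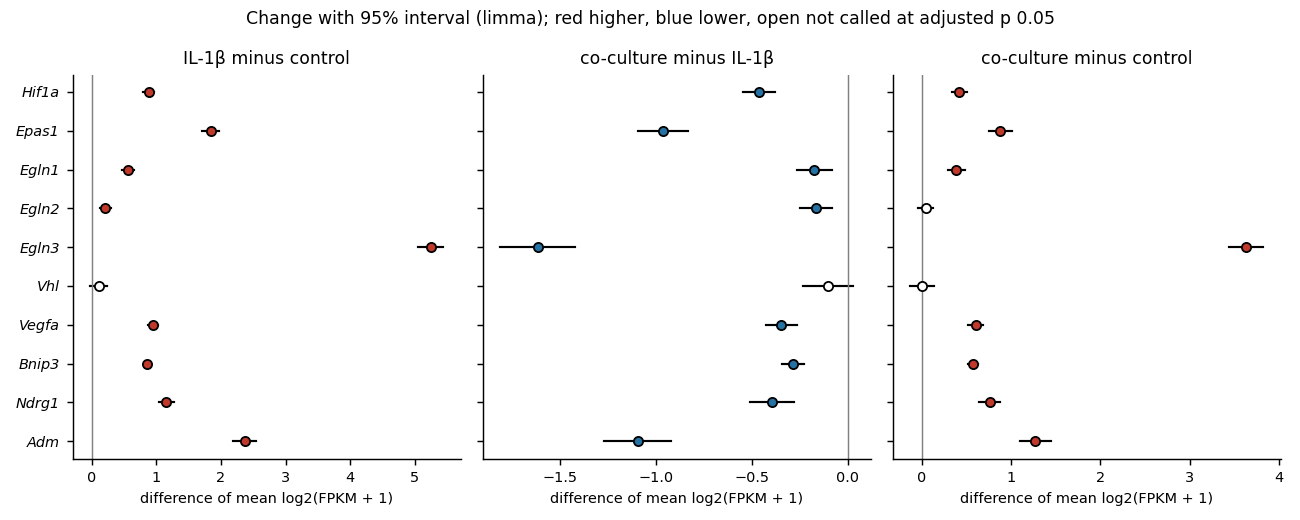
Difference of mean log2(FPKM + 1) with 95% interval for the 10 genes in the 3 comparisons; red points were called higher, blue lower and open points not called in limma. Egln3 lies farthest from 0 in each panel (5.24, -1.61 and 3.63), and Vhl has an interval across 0 in all of them.

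How far co-culture fell back between the IL-1β and control means differed among the genes and with the scale. On the FPKM scale the co-culture mean lay at 65.0% of the IL-1β gain for Egln1, 60.1% for Bnip3, 56.9% for Ndrg1 and 56.0% for Vegfa. It lay at 40.5% for Hif1a, 34.0% for Adm, 32.4% for Epas1 and 31.0% for Egln3. The lowest and highest single libraries were 46.5% (Ndrg1) and 76.5% (Egln1) in the first 4 genes and 28.1% (Egln3) and 48.3% (Hif1a) in the others. On the log2(FPKM + 1) scale Egln3 moved to 69.2%, level with Egln1 at 69.2%, while Epas1 (47.7%), Hif1a (47.9%) and Adm (53.8%) had the lowest positions of these 8. The order of Egln3 was thus set by the scale. These positions are a description with no test of the differences between genes.

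**Figure D4:**
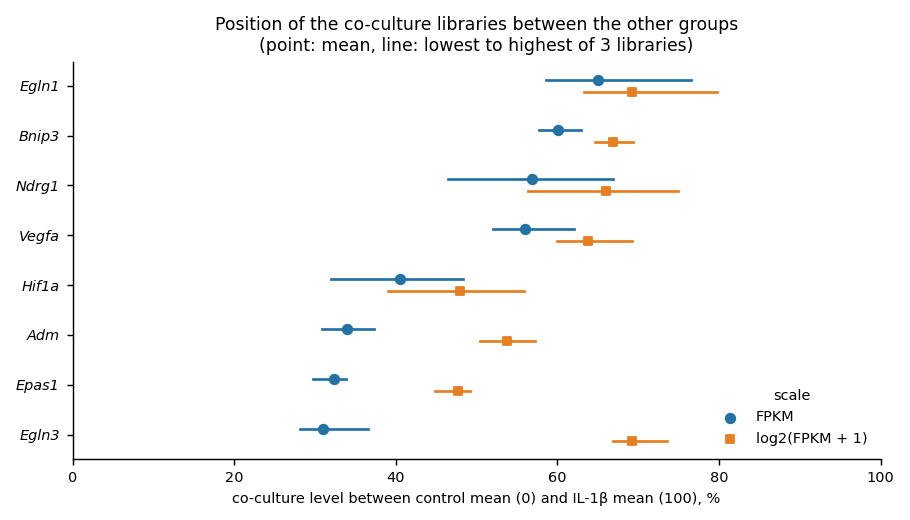
Position of the co-culture level between the control mean (0%) and the IL-1β mean (100%) for 8 genes, as mean and range of the 3 co-culture libraries, on the FPKM and the log2(FPKM + 1) scale. Egln3 goes from the lowest position on the FPKM scale (31.0%) to 69.2% on the log2 scale; Egln2 and Vhl, with small or uncalled rises, are not drawn.

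In order of level, control cells held Bnip3, Hif1a, Vegfa, Adm, Egln2, Egln1, Ndrg1, Vhl, Epas1 and Egln3. With IL-1β the order was Bnip3, Adm, Hif1a, Egln3, Vegfa, Ndrg1, Epas1, Egln1, Egln2 and Vhl. In co-culture it was Bnip3, Hif1a, Adm, Vegfa, Ndrg1, Egln3, Egln1, Egln2, Epas1 and Vhl. Neighbours in these orders had separate libraries, apart from Ndrg1 and Egln3 in co-culture, whose libraries overlapped.

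The rest of the pathway was read from 6 lists holding 73 genes, of which Epo had no row in the table and 6 fell below the filter (Hif3a, Kdr, Flt4, Ramp1, Gpr182 and Park2, none above 0.78 FPKM). Of the 66 tested, 36 rose and 8 fell with IL-1β. Over all tested genes the shares were 26.5% higher and 20.2% lower, so the share of these genes that fell was below that of all genes. In co-culture against IL-1β alone 4 were higher and 25 lower, where all tested genes gave 11.9% and 10.1%.

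The partners and the machinery around the α subunits were nearly all uncalled. Of 13 tested genes for HIF partners, the asparagine hydroxylase FIH (Hif1an), VHL ligase subunits and co-regulators, 1 rose and 0 fell with IL-1β (median log2 change -0.02). Over all tested genes 26.5% were called higher and 20.2% lower. In co-culture against IL-1β, 0 of the 13 were higher and 1 lower, where all tested genes gave 11.9% and 10.1%. In co-culture against control limma called 0 of the 13, and 3 had an unadjusted p under 0.05 (Cited2, Tceb1 and Tceb2). All tested genes gave 21.8% higher and 12.2% lower there. Arnt, the shared β subunit, stood at 13.8 ± 0.40 FPKM in control, 14.3 ± 0.32 with IL-1β and 13.4 ± 0.74 in co-culture, and Hif1an at 13.2 ± 1.08, 12.02 ± 1.02 and 12.03 ± 1.03. The gene that moved was Cited2, which encodes a protein that competes with HIF-1α for the co-activators p300 and CBP. It read 71.7, 69.9 and 69.2 FPKM in control, 103, 99.2 and 103 with IL-1β and 78.4, 74.7 and 71.4 in co-culture (0.53 with IL-1β, limma adjusted p = 1.45e-06, and -0.44 in co-culture against IL-1β, limma adjusted p = 2.83e-05).

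Most other HIF-responsive genes rose with IL-1β. The list of 33 tested genes left out enzymes of the glycolytic steps but held Pfkfb3 and Pfkfb4. Of the 33, 26 rose and 3 fell with IL-1β (median 0.61), against 26.5% higher and 20.2% lower over all tested genes. In co-culture 17 were lower and 2 higher than with IL-1β alone (median -0.19), against 10.1% lower and 11.9% higher over all tested genes. Against control, 22 were higher and 3 lower in co-culture, where all tested genes gave 21.8% and 12.2%. Angptl4, an inhibitor of lipoprotein lipase, rose from 40.2 ± 1.44 to 327 ± 3.42 FPKM and stood at 223 ± 13.4 in co-culture. Ddit4, an inhibitor of mTORC1 signalling, went from 21.2 ± 0.80 to 59.6 ± 1.90 and 33.1 ± 0.80. Slc2a1, which encodes a glucose transporter, went from 68.2 ± 1.77 to 141 ± 2.13 and 94.2 ± 2.65, and P4ha2, a collagen prolyl hydroxylase, from 114 ± 1.35 to 201 ± 3.83 and 144 ± 3.53. These 4 were called in all 3 comparisons.

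The exceptions included enzymes and a peptide also known as HIF targets. P4ha1 fell from 414 ± 11.2 to 337 ± 1.56 FPKM with IL-1β (-0.30, limma adjusted p = 7.41e-06), opposite to its paralog P4ha2. Loxl2, a lysyl oxidase, fell from 129.8 ± 5.51 to 95.2 ± 0.63 (-0.44, limma adjusted p = 2.62e-06) and was higher again in co-culture at 107 ± 2.41 (0.16, limma adjusted p = 0.00674). Edn1, which encodes endothelin-1, fell from 3.45 ± 0.74 to 2.19 ± 0.48 (-0.48, limma adjusted p = 0.0143), a call that ended without IL-1β replicate 1 (-0.39, limma adjusted p = 0.0540). The second gene higher in co-culture was the glucose transporter Slc2a3, at 3.12 ± 1.05 with IL-1β and 5.60 ± 0.44 in co-culture (0.71, limma adjusted p = 0.0112).

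Of 7 tested relatives of Vegfa and VEGF receptor genes, 4 ligand genes rose with IL-1β and both neuropilin genes fell. Over all tested genes 26.5% were called higher and 20.2% lower, and the 2 of 7 that fell are near that share. The lymphangiogenic ligands Figf (VEGF-D) and Vegfc went from 14.2 ± 0.44 and 10.6 ± 0.69 to 24.1 ± 1.18 and 17.96 ± 1.46 FPKM, and placental growth factor (Pgf) from 13.1 ± 0.53 to 18.8 ± 0.49. Vegfb rose by 0.17 (limma adjusted p = 0.0393), a call that ended with no filter, with each of the 3 other scalings, with the replicate number as a block and without control replicate 3, IL-1β replicate 1 or IL-1β replicate 3. The co-receptor genes Nrp2 and Nrp1 fell from 99.4 ± 0.43 and 13.1 ± 0.47 to 72.5 ± 3.08 and 9.16 ± 0.08. In co-culture against IL-1β, Pgf was lower at 13.5 ± 0.39 (-0.45, limma adjusted p = 6.25e-05). Figf was lower at 21.2 ± 1.08 (-0.18, limma adjusted p = 0.0285), a call that ended with libraries scaled to the same total, in a fit of the 6 libraries compared and without any 1 of IL-1β replicates 2 and 3 and co-culture replicates 1 and 2. The signalling receptor gene Kdr stayed at or below 0.37 FPKM, and Flt1 was between 0.98 and 1.51 in all libraries.

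Of 5 tested genes around adrenomedullin, the receptor gene Calcrl and the scavenging receptor gene Ackr3 rose with IL-1β, and the receptor partners Ramp2 and Ramp3 and the related peptide gene Adm2 fell, where 26.5% of all tested genes were called higher and 20.2% lower. Ackr3 went from 18.1 ± 0.62 to 40.8 ± 2.12 FPKM and stood at 33.8 ± 0.61 in co-culture. Calcrl was low throughout, from 1.26 ± 0.06 to 1.96 ± 0.29. Ramp3 went from 54.6 ± 2.92 to 37.7 ± 1.26 and was higher again in co-culture at 44.3 ± 2.79 (0.23, limma adjusted p = 0.0129), and Ramp2 went from 20.8 ± 0.94 to 14.7 ± 1.34.

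Among 5 tested genes of the mitophagy list, which holds neither Bnip3 nor its paralog Bnip3l, 2 rose and 0 fell with IL-1β. That is near the 26.5% of all tested genes called higher, so the count says nothing of the list. Bnip3l was counted with the other HIF-responsive genes. It read 61.2 ± 1.93 FPKM in control, 119 ± 5.31 with IL-1β and 87.9 ± 2.85 in co-culture, and was called in all 3 comparisons. The kinase gene Pink1 read 4.50 ± 0.35 FPKM in control, 8.64 ± 0.82 with IL-1β and 5.86 ± 0.47 in co-culture, and Fkbp8 read 75.9 ± 2.47, 98.8 ± 2.17 and 87.7 ± 2.58. Both were lower in co-culture than with IL-1β alone (-0.49 and -0.17, limma adjusted p = 0.00211 and 0.00616), whereas the prohibitin gene Phb2 was higher in co-culture (0.16, limma adjusted p = 0.00525). Of the Ndrg1 paralogs, Ndrg2 rose from 8.69 ± 0.59 to 19.6 ± 1.49 FPKM and was 14.3 ± 0.81 in co-culture. Ndrg3 and Ndrg4 were not called with IL-1β. Ndrg4 was lower in co-culture than with IL-1β (-0.23, limma adjusted p = 0.0198), a call that ended without IL-1β replicate 1, IL-1β replicate 2 or co-culture replicate 2.

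**Figure D5:**
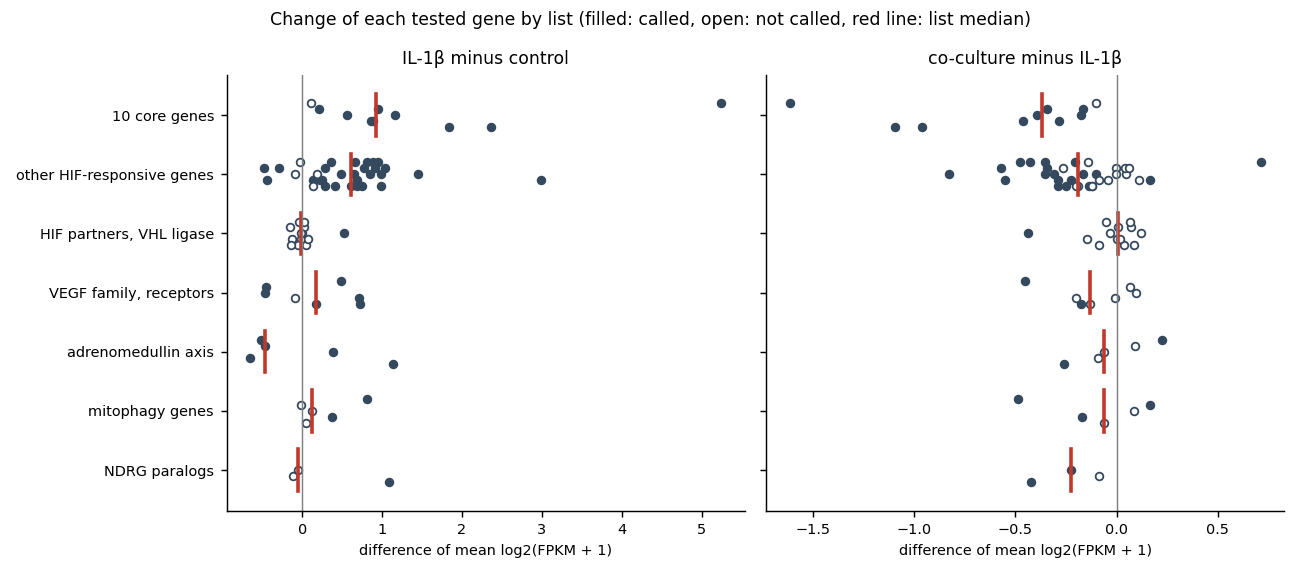
Difference of mean log2(FPKM + 1) for every tested gene of the 10 and of the 6 lists, for IL-1β minus control (left) and co-culture minus IL-1β (right); filled points were called, open ones not, and red lines are list medians. The HIF partners and ligase genes gather at 0 (medians -0.02 and 0.01), with Cited2 the filled point on each side, whereas the other HIF-responsive genes have medians of 0.61 and -0.19.

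The genes with the most similar pattern were sought by the distance between log2(FPKM + 1) values over the 9 libraries, after taking off each gene's control mean. Nearest to Hif1a among the 11732 were Fst (follistatin, distance 0.12), Slc8b1 (0.14) and Pappa (0.18), all highest with IL-1β. Nearest to Egln3 were Pvalb (0.56), Slpi (0.80) and Cxcl6 (0.94). Pvalb, the calcium-binding protein parvalbumin of fast muscle and some neurons, was listed at 0 in control and stood at 39.2 with IL-1β and 10.3 in co-culture. Nearest to Vegfa were Sbno2 (0.12), Gng12 (0.15) and the adhesion molecule gene Icam1 (0.16), which went from 23.7 to 46.5 and 35.1 FPKM.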

How the data were processed

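Poly(A) RNA was captured on oligo(dT) beads, fragmented and copied with random primers, per the labels' protocols; strand keeping is not stated, so reads of antisense genes may not be told apart. The authors deposited FPKM for 17588 genes in 9 libraries, rounded to 2 decimals and not pooled, per the file headers. Which aligner and counter were run is not given in the sources used here. GRCm38, a mouse genome, is named in the submitters' processing notes, while the cells are rat; which build underlies the FPKM is unresolved. The table holds no counts, so depth is unknown and no count test was run.

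Groups came from the sample titles. The 11732 genes with at least 1 FPKM in at least 3 libraries were fitted as log2(FPKM + 1) in limma 3.58.1 (R 4.3.3) with a mean-variance trend. Tests were two-sided, with Benjamini-Hochberg adjustment within each of 3 comparisons. The fit was also run on simulated independent normal noise with known changes. Such data cannot test the FPKM scaling or whether replicates are independent. The log2(FPKM + 1) scale understates changes of low genes. Printed folds are ratios of mean FPKM. The members and lists were chosen with earlier results of these data known. Per list, comparison and direction, up to 4 called genes with the smallest p could be named, and further ones were named after their values were seen. Alternatives were a pseudocount of 0.1, 2 other filters, 3 other scalings, no trend, only the 6 libraries compared, a replicate block and leaving out each library. Promoter windows are from RefSeq (GRCr8). Figures used matplotlib 3.10.9.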

Additional observations from a re-analysis of the deposited data

How the results depend on the processing

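In each comparison the count of the 10 genes called (9, 9 and 8) was the same under all 18 alternatives, the fit with the replicate block included (9, 9 and 8), and every called change of these genes kept its direction and its side of the threshold. The closest were co-culture against IL-1β for Egln1 (limma adjusted p up to 0.0493) and Egln2 (up to 0.0460). Uncalled differences of co-culture from control changed sign: Egln2 to -0.0136 with libraries scaled to the same total and -0.0012 with quantile normalization, and Vhl to -0.0522, -0.0369 and -0.0329 with same-total, quantile and median-of-ratios scaling, and to -0.0173 and -0.0432 without control replicate 1 and co-culture replicate 3 (0.0351 at most with 1 library left out). Pathway genes called ranged, with no library left out, from 40 to 46, 26 to 32 and 36 to 41, and with 1 left out from 42 to 44, 24 to 28 and 37 to 41. With 1 library left out, the largest group difference was 0.997 to 1.09 for the Epas1 to Hif1a ratio and 59.1 to 59.5 percentage points for the Egln3 share (exact permutation p at most 0.0250). The replicate block called 43, 27 and 39 pathway genes. Same-numbered libraries showed no strong shared deviation (Pearson's r over tested genes -0.0907 to 0.0855). With 3 libraries a group, these correlations cannot tell whether same-numbered libraries shared an animal, dish or day. The alternatives for named pathway genes were added after seeing the data. FPKM hides depth, so precision rests on 3 libraries a group.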
